A study of Homo sapiens with 10 samples.

Results

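The canonical replication-dependent histone genes were followed in NB4, a human acute promyelocytic leukaemia cell line, with and without JOA. They were taken as the protein-coding genes whose current symbol is H1-1 to H1-6 or starts with H2AC, H2BC, H3C or H4C followed by a digit. The rule finds 70 genes in the annotation, and 64 of them were among the 21972 genes of the NB4 table. H2AC1, H2BC1, H2BC10, H4C6, H4C7 and H4C12 were not analysed here. Of the 64 genes, 49 lie on chromosome 6, 13 on chromosome 1, 1 on chromosome 12 (H4C16) and 1 on chromosome 21 (H2BC12L).

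JOA-treated NB4 had 2 libraries, from cells kept for 48 h with 1 µM of an agent labelled JOA. Control NB4 also had 2 libraries, from cells kept for the same 48 h with a control agent that the labels do not specify. The title, agent and treatment of the treated libraries give JOA but their source label gives I13, and they are called JOA here. The second line of the series, Kasumi-1, a human acute myeloid leukaemia line, had 3 JOA and 3 control libraries with the same dose and time. NB4 and Kasumi-1 are single cell lines, and nothing in the labels says that the libraries of a group came from separate cultures, so the p-values reflect how far these libraries spread, and that spread may be technical.

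Canonical histone genes supply the core histones H2A, H2B, H3 and H4 and the linker histone H1 while a cell copies its DNA in S phase. Most of their mRNAs carry no poly(A) tail. They end instead shortly after a conserved stem-loop, which the stem-loop binding protein SLBP holds and which is cut with the help of the U7 small nuclear RNA. Some of these genes, H2BC5, H2AC6, H2BC21, H2BC4 and H2BC12 among them, are also known in human cells to give longer, polyadenylated mRNAs, mainly in differentiating or non-dividing cells. The libraries were made with an mRNA kit that selects poly(A) RNA, so the values describe the polyadenylated or carried-over portion of histone mRNA and not the total.

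The stem-loops are shown first because the transcript classes used later turn on where an annotated transcript ends relative to them. Each line gives bases of a transcript in GENCODE v29 5′ to 3′ as DNA letters, with the 16 bases of the stem-loop in capitals and the bases beside it in lower case.
H2BC5: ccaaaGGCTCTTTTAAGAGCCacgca
H2BC4: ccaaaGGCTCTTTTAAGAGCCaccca
H2BC21: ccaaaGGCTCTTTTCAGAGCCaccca
H2BC18: ccaaaGGCTCTTTTCAGAGCCacttc
H2AC6: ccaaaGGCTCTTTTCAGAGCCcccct
H2AC19: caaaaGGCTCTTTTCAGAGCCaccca
H4C9: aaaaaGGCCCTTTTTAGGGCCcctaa
H4C11: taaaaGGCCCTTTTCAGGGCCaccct
The motif searched was the histone stem-loop consensus on the sense strand, with 4 of its 16 positions left free. It was found in 41 of the 86 listed transcripts of these genes (47.7%) and in 24 of 206595 other annotated transcripts (0.0116%). The H2A and H2B stem-loops shown open with GGCTC, and the H4 stem-loops with GGCCC. H2BC5 and H2BC4 share the form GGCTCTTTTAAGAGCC, found in 4 listed transcripts, against 20 with the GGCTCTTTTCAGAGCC form seen in H2BC21, H2BC18, H2AC6 and H2AC19. H4C9 carries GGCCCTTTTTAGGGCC (5 listed transcripts) and H4C11 carries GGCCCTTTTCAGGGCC (10 listed transcripts).

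Of the 86 listed transcripts, 33 are unspliced and hold no stem-loop. In the annotation, 29 of these run only from the start codon to the stop codon. H2BC12, at chr6:27146418-27146798 on the minus strand of GRCh38, is one of them, with 381 annotated bases in a single exon. For such genes, reads beyond the coding bases have no annotated place in the models used here. Of the others, 10 unspliced transcripts end within 100 bases after the stem-loop, 19 unspliced ones run further past it, and 24 are spliced. Some of the spliced ones hold a stem-loop and others do not. The promoters of 3 genes are also shown: the H2B gene with the highest mean level (H2BC12), the H4 gene with the highest (H4C11), and H2BC5. They are RefSeq sequence of GRCh38.p14, from 250 bases before to 50 after the annotated start, with matches of 3 motifs on either strand in capitals. The motifs were the TATA box (TATAAA), the CCAAT box (CCAAT) and the octamer (ATTTGCAT).
H2BC12 (chr6:27146809-27147108, minus strand): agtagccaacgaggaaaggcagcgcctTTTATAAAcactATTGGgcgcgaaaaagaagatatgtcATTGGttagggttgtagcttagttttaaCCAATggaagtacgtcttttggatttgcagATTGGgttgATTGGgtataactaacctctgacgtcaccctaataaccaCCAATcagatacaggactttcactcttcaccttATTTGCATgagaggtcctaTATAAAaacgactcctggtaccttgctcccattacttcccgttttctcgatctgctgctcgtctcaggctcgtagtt
H2BC5 (chr6:26157871-26158170, plus strand): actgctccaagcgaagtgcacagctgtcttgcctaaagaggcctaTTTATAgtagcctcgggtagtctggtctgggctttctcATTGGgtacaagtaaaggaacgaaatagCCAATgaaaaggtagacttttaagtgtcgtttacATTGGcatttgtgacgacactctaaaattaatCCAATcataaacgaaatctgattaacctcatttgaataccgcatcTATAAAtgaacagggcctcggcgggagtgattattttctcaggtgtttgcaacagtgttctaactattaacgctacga
H4C11 (chr6:27823842-27824141, plus strand): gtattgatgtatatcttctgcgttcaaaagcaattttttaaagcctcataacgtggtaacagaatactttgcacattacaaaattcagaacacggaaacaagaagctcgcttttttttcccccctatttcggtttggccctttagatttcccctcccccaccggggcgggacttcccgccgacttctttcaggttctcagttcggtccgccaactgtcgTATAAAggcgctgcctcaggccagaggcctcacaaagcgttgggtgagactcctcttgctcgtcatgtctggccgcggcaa
A promoter was matched for 58 of the genes. The octamer was present in 12 of 16 H2B and 10 of 15 H2A promoters but in 0 of 10 H4 and 0 of 6 H1 promoters, and in 1.80% of all 27305 promoters of the same length. CCAAT was present in 86.2% of the histone promoters and 35.7% of all, with all 16 H2B and all 15 H2A promoters but 2 of 10 H4 promoters holding it. TATAAA was present in 38 of the 58 histone promoters (65.5%) and in 3264 of all 27305. Among the promoters shown, H2BC12 holds all 3 motifs, H2BC5 holds TATAAA and CCAAT, and H4C11 holds TATAAA only. These matches describe letters in the window and were not tied to any difference in level.

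In the poly(A)-selected libraries the canonical histone genes were low. Their values are in TPM, a transcripts-per-total unit that sets each transcript's reads against its length and against all other transcripts of the library. Over the 4 libraries 37 of the 64 genes averaged under 1 TPM, 24 averaged 1 to under 5 TPM and 3 averaged 5 TPM or more. The median of the gene means was 0.650 TPM, against 7.29 TPM for the 17429 protein-coding genes of the table, which puts the median histone gene at percentile 29.7 and H2BC12, the highest, at percentile 69.8. H1-1, H1-3, H2AC25 and H4C2 were listed at 0 in every library. TPM keeps no depth, so the reads behind a low value are unknown.

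The replacement histones, which are made outside S phase as well and from ordinary polyadenylated mRNAs, were higher by far. Over 11 such genes the summed TPM was 3127 and 2999 in JOA libraries, against 2964 and 3174 in control libraries. H3-3B, which encodes H3.3, had 879 and 849 TPM in JOA libraries and 805 and 918 TPM in control libraries. H2AZ1, which encodes H2A.Z, had 652 and 636 TPM in JOA libraries and 634 and 758 TPM in control libraries. For both genes the groups overlapped.

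Summed over the 64 canonical genes, the level was 123.7 and 101.7 TPM in JOA libraries, against 96.2 and 99.8 TPM in control libraries. Both JOA sums lay above both control sums, with means of 113 ± 15.6 and 98.0 ± 2.53 TPM (SD, n = 2 each) and a difference of 14.7 TPM. The difference was 3.72 TPM without JOA library 1 and 25.8 TPM without JOA library 2. It was 7.32 TPM after median-ratio scaling of the libraries and 5.95 TPM without H2BC12. The groups overlapped after that scaling, after removal of mitochondrial transcripts and without H2BC12. In bulk RNA, fewer cells making a transcript and less of it per cell cannot be told apart.

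Among the 5 histone classes, only the H2B sums were separate between the groups. The 17 H2B genes summed to 64.8 and 51.1 TPM in JOA libraries, against 44.9 and 39.2 TPM in control libraries, and H2BC12 alone supplied the largest share of them. H2A genes summed to 33.8 and 25.2 TPM with JOA and 25.0 and 30.7 TPM in control. H3 genes summed to 7.08 and 8.83 TPM with JOA and 7.98 and 11.01 TPM in control, and H4 genes to 13.5 and 10.03 TPM with JOA and 13.1 and 12.8 TPM in control. H1 genes summed to 4.50 and 6.47 TPM with JOA and 5.23 and 5.95 TPM in control. The H2A, H3, H4 and H1 sums overlapped between the groups. The H2B sums were also separate after median-ratio scaling and after removal of mitochondrial transcripts, and the removal left the H4 sums with JOA below control, at 15.2 and 11.6 TPM with JOA and 15.3 and 15.4 TPM in control.

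**Figure D1:**
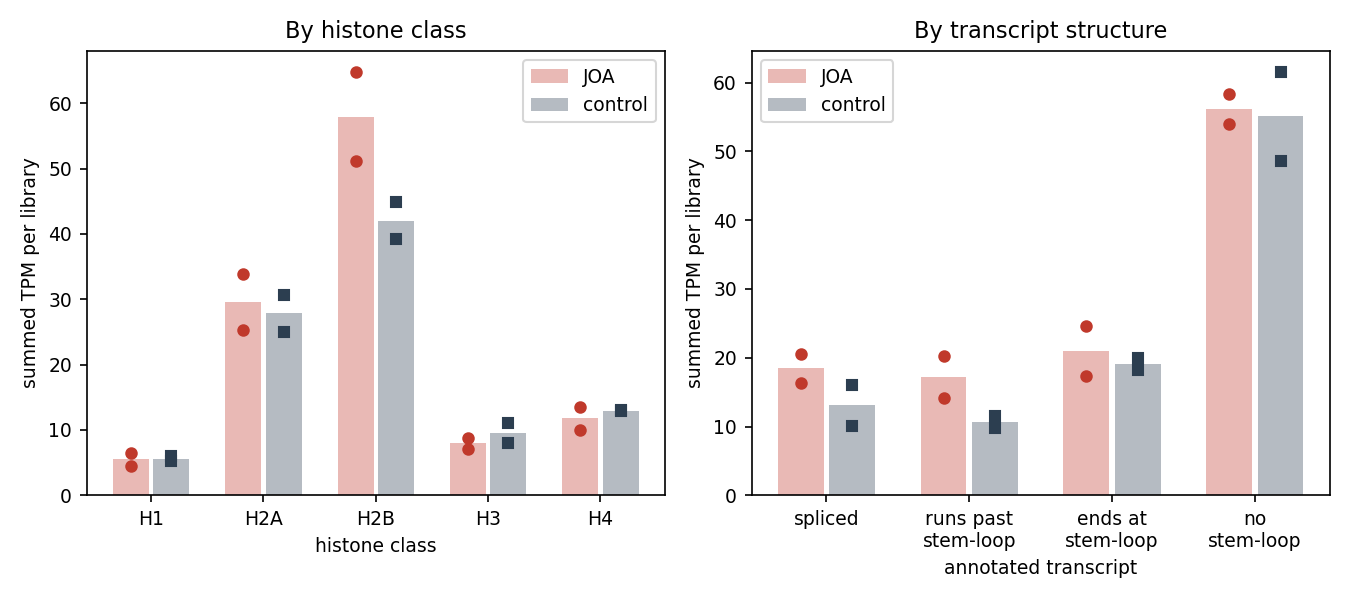
Summed TPM of the canonical histone genes in each NB4 library by histone class (left) and by annotated transcript structure (right), with bars at the mean of 2 libraries and 1 point per library, JOA in red and control in dark blue. JOA points lie above the control points for H2B genes, for transcripts that run past the stem-loop and, in these unscaled values, for spliced transcripts (they overlap after median-ratio scaling or removal of mitochondrial transcripts), and overlap control elsewhere.

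No single histone gene passed the test across all genes. Of the 64, 26 reached 1 TPM in at least 2 libraries and were tested with limma on log2(TPM + 1), and 0 were called at a Benjamini-Hochberg adjusted p under 0.05. Over all 12949 genes tested the same fit called 1 gene (0.00772%), so the fit called almost nothing anywhere. A fit with the replicate number as a block, which the values do not back as pairs in NB4, called 4 of 26, beside 1.16% of all genes. The lowest adjusted p of a histone gene was 0.173, for H4C4. Without adjustment, 10 of 26 histone genes had a p under 0.05, 5 higher and 5 lower with JOA, beside 10.6% of all genes tested (8.19% higher and 2.42% lower). H4C15 reached 1 TPM only in JOA libraries and 4 of the 26 (H3C3, H3C7, H4C4 and H4C16) only in control libraries, so the filter itself let these in through the group where they were high.

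In terms of separation, 8 of the 26 had both JOA libraries above both controls, beside 32.5% of all genes tested, and 7 had both below, beside 11.0%. The other 11 overlapped. The log2 difference was positive in 13 and negative in 13, while 66.2% of all genes tested were positive. Its median was 0.07 over these 26 genes and 0.08 over all genes tested. The standard errors ran from 0.16 to 0.74 with a median of 0.29, against a median of 0.16 over all genes tested, so the spread was wider for histone genes than for most genes.

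**Figure D2:**
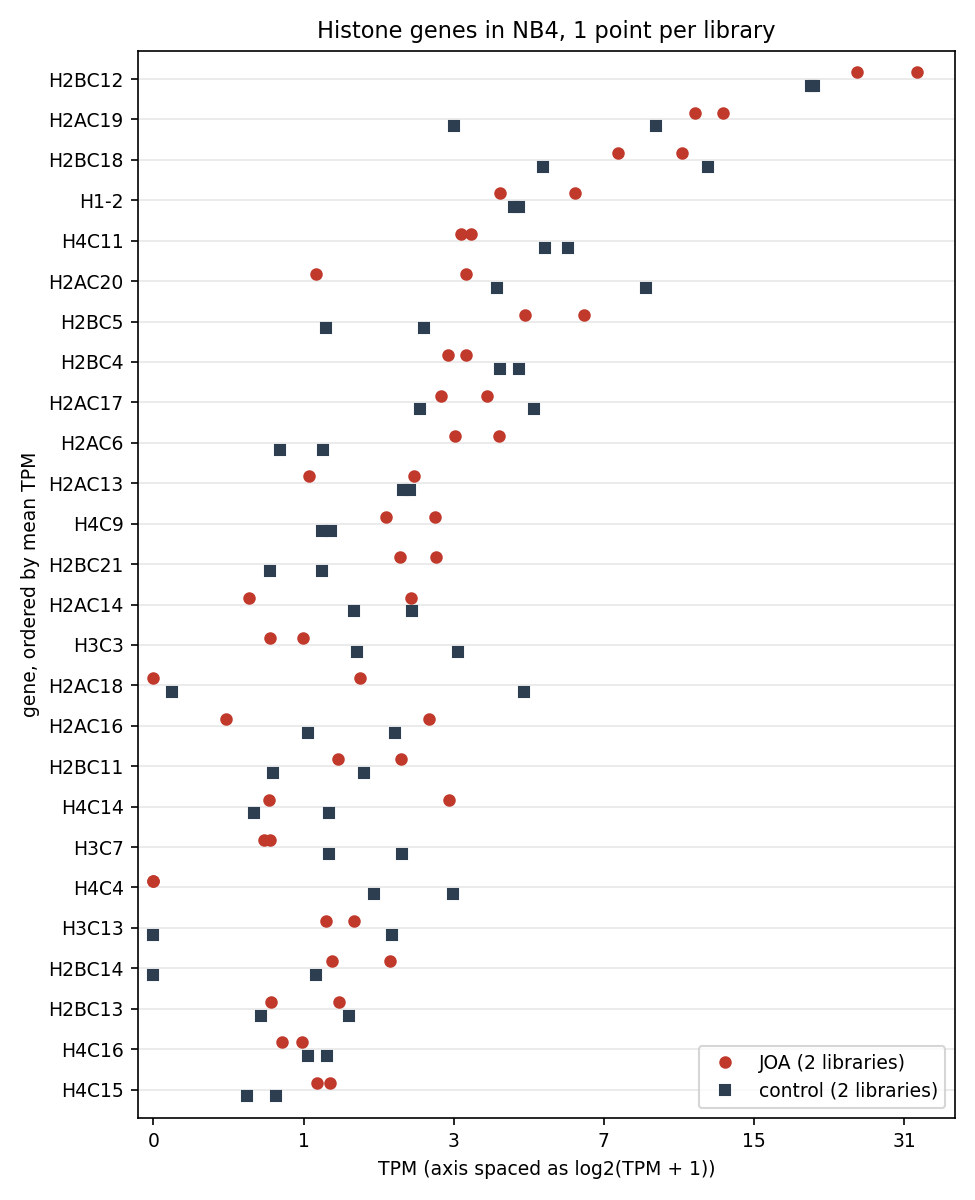
TPM of the 26 tested histone genes in each NB4 library, on an axis spaced as log2(TPM + 1) and ordered by mean, with JOA (red circles) above control (dark blue squares) in each row. H2BC12 stands apart at the top, most genes lie under 5 TPM, and in H2AC18 the spread within a group is wider than any gap between groups.

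Among the H2B genes, H2BC12 was the most abundant canonical histone gene in every library. It had 32.9 and 24.7 TPM in JOA libraries, against 20.2 and 19.9 TPM in control libraries, and made up 26.6% and 24.3% of the histone sum with JOA and 21.0% and 19.9% in control. The groups did not overlap, and the log2 difference was 0.49 (SE 0.16, limma adjusted p = 0.371). Its annotated sequence shares 74.1% of its 50-base windows with other canonical histone genes, most of them with H2BC12L, so the pair cannot be fully separated by short reads. H2BC12L had 0.768 and 0.277 TPM with JOA and 0.487 and 2.63 TPM in control.

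H2BC5 had 6.31 and 4.55 TPM in JOA libraries, against 2.49 and 1.22 TPM in control libraries. Both JOA values exceeded both controls, and the log2 difference of 1.20 was the highest of the 26 (SE 0.28, limma adjusted p = 0.262). H2BC21 had 2.69 and 2.12 TPM with JOA and 1.17 and 0.713 TPM in control (log2 difference 0.81, SE 0.26), again without overlap. H2BC18 had 10.5 and 7.54 TPM with JOA and 11.9 and 5.05 TPM in control, where the control pair enclosed the JOA pair. H2BC4 went the other way without overlap, at 3.24 and 2.90 TPM with JOA and 3.96 and 4.40 TPM in control (log2 difference -0.35, SE 0.21).

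Among the H2A genes, 2 of the 8 tested had a positive difference. H2AC6, which lies beside H2BC4 on chromosome 6, had 3.93 and 3.03 TPM in JOA libraries, against 1.19 and 0.790 TPM in control libraries (log2 difference 1.17, SE 0.25, limma adjusted p = 0.210). The groups were well apart. H2AC19 had 12.9 and 11.2 TPM with JOA and 9.20 and 3.01 TPM in control (log2 difference 1.02, SE 0.39), and the gap there came mostly from control library 2. H2AC18, a near copy of H2AC19 that shares reads with it, had 1.60 and 0 TPM with JOA and 0.0877 and 4.54 TPM in control. Taken as 1 value, the pair had 14.5 and 11.2 TPM with JOA and 9.29 and 7.55 TPM in control, so the groups still did not overlap.

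The other H2A genes named were level or lower with JOA. H2AC20 had 1.12 and 3.23 TPM in JOA libraries, against 3.88 and 8.70 TPM in control libraries (log2 difference -1.20, SE 0.41, limma adjusted p = 0.388), with no overlap but a wide spread in each group. H2AC17 had 3.67 and 2.77 TPM with JOA and 2.43 and 4.78 TPM in control, and it overlaps H3C12 on the same strand. H2AC13 had 2.32 and 1.05 TPM with JOA and 2.17 and 2.26 TPM in control. Both of these overlapped between groups.

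The H3 and H4 genes were low. Of the 3 H3 genes tested 1 had a positive difference and 2 a negative one, and of the 6 H4 genes 3 were positive and 3 negative, with a median of 0.12. The filter partly fixes these signs. H3C3, H3C7, H4C4 and H4C16 passed it only through control libraries, and H4C15 only through JOA libraries. Those described in full were partly picked by a small p. H3C3 had 0.994 and 0.713 TPM in JOA libraries, against 1.56 and 3.08 TPM in control libraries (log2 difference -0.81, SE 0.30). H3C7 had 0.663 and 0.713 TPM with JOA and 1.25 and 2.16 TPM in control (log2 difference -0.66, SE 0.28). Neither pair of groups overlapped. H4C11, whose transcript ends 6 bases after its stem-loop, had 3.33 and 3.14 TPM with JOA and 5.09 and 5.79 TPM in control (log2 difference -0.60, SE 0.20, limma adjusted p = 0.371).

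H4C4 was listed at 0 in both JOA libraries and had 2.99 and 1.77 TPM in control libraries. H4C9 went the other way, with 2.68 and 1.93 TPM with JOA and 1.27 and 1.17 TPM in control (log2 difference 0.56, SE 0.25). For both the groups were separate. H4C15 had 1.26 and 1.13 TPM with JOA and 0.762 and 0.544 TPM in control, without overlap, and H4C16 had 0.982 and 0.808 TPM with JOA and 1.23 and 1.04 TPM in control, also without overlap. H4C14 and H3C13 had positive differences (0.45 for each on the log2 scale) with overlapping groups. H1-2, the only linker histone gene tested, had 3.95 and 5.99 TPM with JOA and 4.29 and 4.40 TPM in control, and the groups overlapped.

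The 38 genes that were not tested averaged at most 1.11 TPM, and no library held more than 2.63 TPM of any of them. Among the 34 of them above 0 in any library, 12 had both JOA values above both controls, beside 18.4% of all untested genes above 0, and 3 had both below, beside 11.0%. The 12 were H2AC4, H2AC11, H2BC6, H2BC8, H2BC9, H3C8, H3C11, H3C14, H3C15, H4C1, H4C5 and H4C13, named after their values were seen. H3C14 and H3C15 had identical values in every library and count as 1 measurement. The 3 below were H1-4, H2AC8 and H3C10.

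When transcripts were separated by structure, those that run past the stem-loop stood higher with JOA. The 19 unspliced transcripts that run at least 100 bases past it summed to 20.3 and 14.1 TPM in JOA libraries, against 11.5 and 9.80 TPM in control libraries. Of the 18 above 0 in any library, 16 had a higher JOA mean and 2 a lower one, beside 55.9% of all transcripts with a higher JOA mean. Both JOA values lay above both controls in 11 of the 18 (61.1%), beside 19.7% of all transcripts, and below both in 1, beside 12.1%. The 11 include H3C14 and H3C15, which have the same values. Most of the 11 were near the floor: only those of H2BC4, H2BC21 and H4C9 averaged 1 TPM or more in either group. Of the 19 transcripts, 5 passed the filter for the test.

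Spliced transcripts summed to 20.6 and 16.3 TPM with JOA and 16.1 and 10.1 TPM in control, and 14 of 23 had a higher JOA mean. Their sums were separate as deposited but overlapped after median-ratio scaling and after removal of mitochondrial transcripts, while the sums of the unspliced longer transcripts were separate in both cases. Transcripts that end at the stem-loop summed to 24.6 and 17.3 TPM with JOA and 19.9 and 18.3 TPM in control, and 4 of 9 had a higher JOA mean. Unspliced transcripts with no annotated stem-loop summed to 58.3 and 53.9 TPM with JOA and 48.6 and 61.6 TPM in control. Among them 13 of 31 had a higher JOA mean. The sums of these last 2 kinds overlapped between groups. Of 27 histone transcripts tested by limma, 0 were called, as were 0 of all 51643 (0.0%), while 6.72% of all had an unadjusted p under 0.05. Transcripts of one gene share reads, so the deposited split between them is an estimate.

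H2BC5, H2BC6 and H4C8 have both a transcript that ends at the stem-loop and one that ends further on. For H2BC5 the spliced transcript, which ends beyond the stem-loop, had 4.27 and 4.55 TPM in JOA libraries, against 0.954 and 0.759 TPM in control libraries, without overlap. The H2BC5 transcript that ends at the stem-loop had 2.04 and 0 TPM with JOA and 1.53 and 0.457 TPM in control, with overlap. H2BC6 and H4C8 stayed under 1 TPM for each end in every library. H2BC4 has a spliced transcript and one that runs past its stem-loop, and the 2 differed in direction: the spliced one had 0.616 and 0.734 TPM with JOA and 2.47 and 3.03 TPM in control, and the unspliced one had 2.63 and 2.16 TPM with JOA and 1.49 and 1.38 TPM in control.

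The 26 tested genes can also be set out by transcript structure. Of the 10 with a listed spliced or longer transcript, 8 had a positive difference and 2 a negative one, with both JOA libraries above both controls in 5 and below in 2, beside 66.2% positive, 32.5% above and 11.0% below over all genes tested. Of the 16 with neither, 5 had a positive difference and 11 a negative one, with JOA above in 3 and below in 5. The filter partly fixes these counts: H4C15 (among the 5 above) passed it only through JOA libraries, and H4C16, H3C3, H3C7 and H4C4 (all below) only through control libraries. The counts are given as a description with no test, and nothing is read from them about the 2 kinds of gene.

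**Figure D3:**
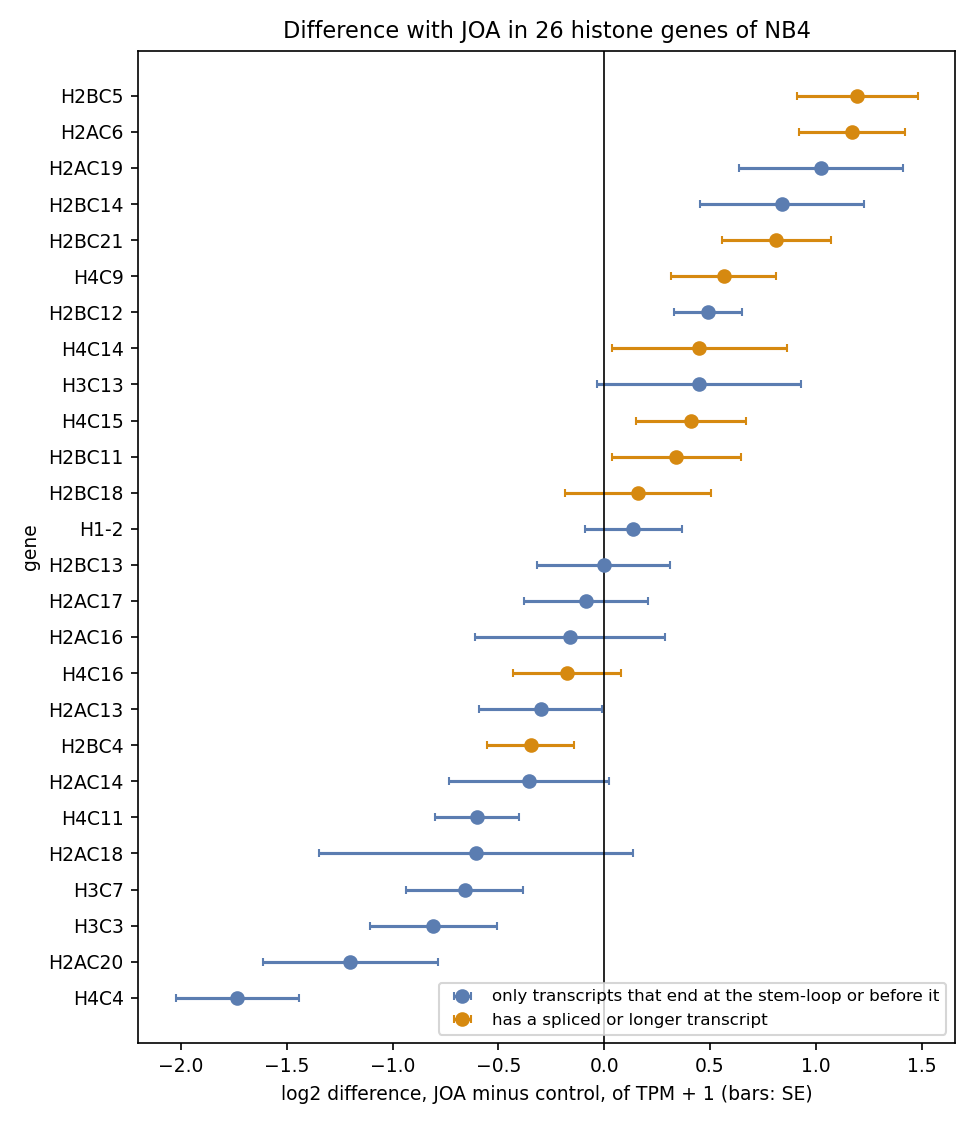
Log2 difference (JOA minus control) of TPM + 1 for the 26 tested histone genes of NB4, with bars of 1 SE, coloured by whether the gene has a listed spliced or longer transcript (orange) or neither (blue). Blue genes have only annotated transcripts that end at the stem-loop or hold none. The annotation of H2BC12, for example, stops at the stop codon, so the colour does not show where its mRNA ends. Orange genes lie mostly to the right of 0 and blue genes mostly to the left, with H2BC4 and H4C16 the orange exceptions and H2AC19, H2BC14 and H2BC12 among the blue ones on the right. H4C15 passed the filter only through JOA libraries and H4C16, H3C3, H3C7 and H4C4 only through control libraries, which partly fixes where they lie.

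None of the genes that make, process or deliver histones was called. Of 19 genes for histone transcription and 3′ end formation, 0 were called by limma and 0 had an unadjusted p under 0.05, with 13 positive and 6 negative differences and a median of 0.05. SLBP, the stem-loop binding protein, had 157 and 165 TPM in JOA libraries, against 178 and 178 TPM in control libraries, with both JOA values below. NPAT, which activates histone gene transcription, had 14.5 and 15.6 TPM with JOA and 14.9 and 12.1 TPM in control, with overlap. Of 21 histone chaperone and carrier genes 0 were called, with 15 positive and 6 negative differences and a median of 0.05. At an unadjusted limma p under 0.05, 1 was lower and 0 were higher, beside 2.42% and 8.19% of all genes tested. Both JOA libraries lay above both controls in 6 and below in 4, beside 32.5% and 11.0% of all genes tested. NASP, which binds H3 and H4 before deposition, had 454 and 476 TPM with JOA and 476 and 444 TPM in control.

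Among 15 genes of the general polyadenylation machinery 0 were called, with 11 positive and 4 negative differences and a median of 0.09. In limma, 1 of the 15 was higher at an unadjusted p under 0.05, beside 8.19% of all genes tested. PABPC1, the cytoplasmic poly(A) binding protein, had 1698 and 1550 TPM with JOA and 1584 and 1312 TPM in control. Of 10 replacement histone genes tested 0 were called, with 7 positive and 3 negative differences. At an unadjusted limma p under 0.05, 1 of the 10 was higher. A list of 16 small RNAs without poly(A) tails, meant to show how much such RNA was carried over, was not analysed here.

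Genes of DNA replication lay slightly lower with JOA. Of 23 such genes 0 were called and 4 had a lower value at an unadjusted p under 0.05, while 19 differences were negative and 4 positive, with a median of -0.12. Both JOA libraries lay below both controls in 14 of the 23. Over all genes tested, 2.42% were lower at that p and 11.0% had both JOA libraries below both controls. MCM7, a subunit of the replicative helicase, had 460 and 434 TPM in JOA libraries, against 515 and 533 TPM in control libraries. PCNA, the sliding clamp, had 467 and 481 TPM with JOA and 504 and 507 TPM in control. Whether this has a part in the histone values was not tested.

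Promyelocyte markers were present, with a sum over 6 genes of 6373 and 5008 TPM in JOA libraries and 8707 and 8568 TPM in control libraries, and both JOA libraries lay below both controls in 5 of the 6, beside 11.0% of all genes tested. CD33 lay the other way, at 72.2 and 75.4 TPM with JOA and 58.4 and 49.8 TPM in control. ELANE was the low one, at 0.409 and 0.079 TPM with JOA and 1.00 and 1.59 TPM in control. It passed the filter only through control libraries, which fixed its place among the 5 below. The erythroid and fibroblast lists summed to under 1 TPM in every library. The 4 epithelial markers summed to 53.5 and 54.8 TPM with JOA and 39.1 and 38.3 TPM in control, almost all from KRT18, EPCAM and KRT8. The 4 T-cell markers summed to 32.2 and 47.8 TPM with JOA and 26.4 and 27.8 TPM in control, almost all from CD3D, with CD3E and CD2 at or near 0, and 3 B-cell markers summed to 7.22 and 6.27 TPM with JOA and 6.09 and 6.06 TPM in control. Mitochondrial transcripts took 11.2% and 13.1% of the TPM with JOA and 14.6% and 16.4% in control. The part of these in the histone values was not tested.

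In Kasumi-1, 11 of the 70 genes had a record in the deposited table, and 3 passed the filter of 1 FPKM, fragments set against transcript length and library size, in at least 3 libraries. H2BC12 had 20.8, 21.8 and 26.2 FPKM in JOA libraries, against 14.7, 12.1 and 16.2 FPKM in control libraries. All 3 JOA values exceeded all 3 controls, with a log2 difference of 0.65 (SE 0.12, limma adjusted p = 0.116) in a fit that called 0 of 12101 rows (0.0%), while 16.4% of rows had an unadjusted p under 0.05. With the replicate number as a block, H2BC12 was called higher (SE 0.07, limma adjusted p = 0.0290, higher in 3 of 3 pairs), as were 6.08% of all rows in that direction, 8.14% being called in either. The adjusted p was 0.0561 to 0.0984 when any one pair was left out.

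H2BC5 had 1.04, 2.17 and 1.66 FPKM in JOA libraries of Kasumi-1, against 0.825, 1.31 and 1.11 FPKM in control libraries. The groups overlapped, and JOA was higher in 3 of 3 pairs (log2 difference 0.31, SE 0.19, limma adjusted p = 0.445 without the block and 0.125 with it). H1-2 had 1.12, 1.29 and 1.97 FPKM with JOA and 1.55, 1.96 and 0.942 FPKM in control, with overlap. Levels are not compared between the lines, since their tables differ in unit and were normalised apart.

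The difference between the lines was tested for these genes in 1 limma fit over all 10 libraries. It called 14 of 7176 genes (0.195%), and 0 of 3 histone genes. The log2 difference with JOA in NB4 minus that in Kasumi-1 was -0.16 for H2BC12 (SE 0.20, adjusted p = 0.803) and 0.88 for H2BC5 (SE 0.32, adjusted p = 0.321). The same 1 was added to TPM in NB4 and to FPKM in Kasumi-1. The change of a low gene such as H2BC5 may thus be understated unequally in the 2 lines. In the same fit, where the variance is shared over both lines, H2BC5 was called higher in NB4 with JOA (log2 difference 1.20, SE 0.25, limma adjusted p = 0.0391), in a fit that called 2.13% of all genes in NB4 in either direction.

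**Figure D4:**
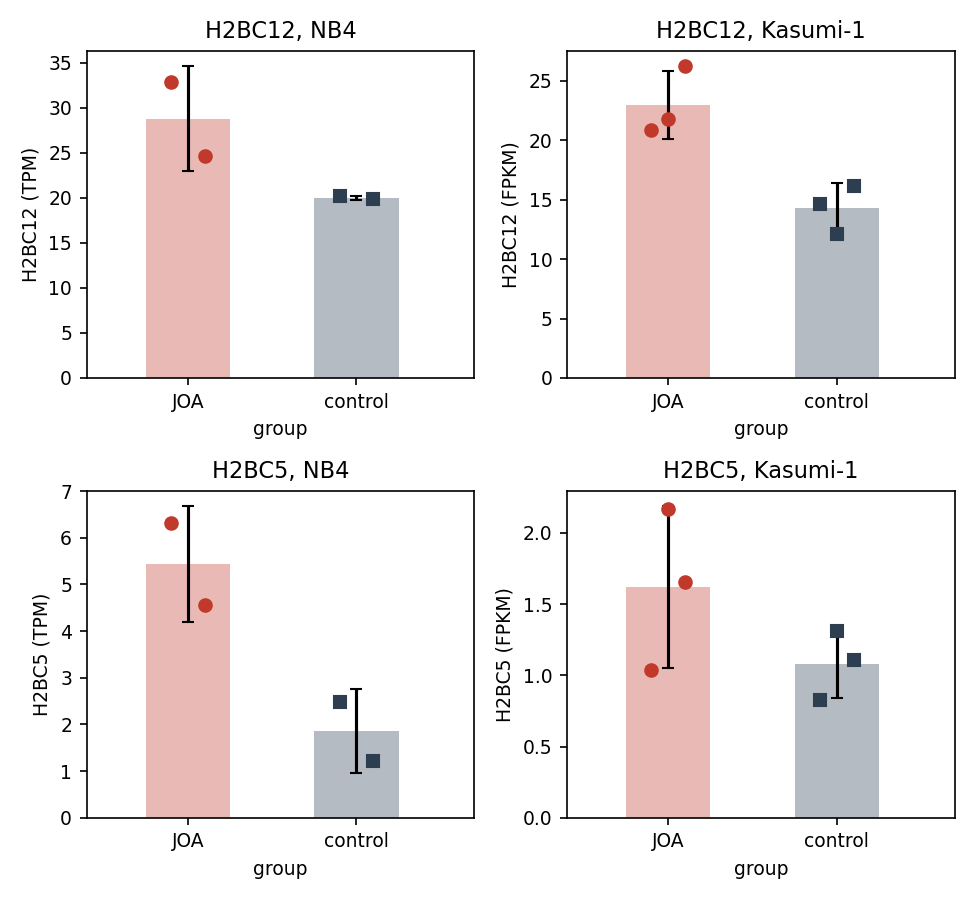
H2BC12 (top) and H2BC5 (bottom) in NB4 (left, TPM, 2 libraries per group) and Kasumi-1 (right, FPKM, 3 libraries per group), with JOA left of control, bars at the mean, error bars of 1 SD and 1 point per library. The JOA points lie above all control points in 3 panels and overlap with control for H2BC5 in Kasumi-1.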

How the data were processed

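Per the labels' protocols, RNA was sequenced from libraries of a stranded TruSeq mRNA kit. HISAT2, HTSeq, Trimmomatic, Cufflinks and hg38 appear in the submitters' processing notes without versions or roles. The NB4 values were deposited under a name that says FPKM, but its columns sum to 999679 to 999758, so they were taken as TPM per transcript as made by the authors. The authors deposited Kasumi-1 values as FPKM per sequence record, per the file headers and names. Whether counting used strand is not given in the sources used here.

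NB4 transcripts were matched to GENCODE v29 on GRCh38 (93.9% of 121005, with 2.91% to 3.18% of the TPM unmatched) and summed to genes, and current symbols came from RefSeq tables. Both tables were fitted with limma 3.58.1 in R 4.3.3 on log2(value + 1), with a variance trend, after a filter of 1 or more in 2 libraries (NB4) or 3 (Kasumi-1). A fold on this scale understates the change of low genes. Features with a Benjamini-Hochberg adjusted p under 0.05, over all features, were called. Python 3.11.15 was used for tables and sequence matches, and the fits were tested on simulated data.

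In Kasumi-1, libraries with the same number deviated together (correlations of 0.330, 0.500 and 0.424 across rows), so the numbers were taken as pairs. This pairing comes from the values and not from a label. The genes and lists were chosen with earlier results of these data known. Genes given in full were the 12 highest, up to 10 with the smallest unadjusted p at a mean of 1 or more and the highest of each class, and the related lists contributed their most abundant genes. Alternatives changed the pseudocount, filter, scaling, transcripts summed, block and libraries. Summing near-identical pairs, leaving out H2BC12 or a Kasumi-1 pair, and rescaling the sums by class and structure were chosen after seeing the data. The values of 1 gene of the related lists are not reported here.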

Additional observations from a re-analysis of the deposited data

How the results depend on the processing

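No histone gene of NB4 was called by limma with a pseudocount of 0.1, without the filter, after median-ratio scaling, without mitochondrial transcripts, with classes or near-identical pairs summed, or without any single library. With only protein-coding transcripts summed 1 was called (H4C4, adjusted p = 0.0354), and with the variance shared over both lines 1 was called (H2BC5). In NB4 the deviations of same-numbered libraries correlated at 0.07. With 2 libraries per group the other matching must give -0.07, so this value cannot decide whether libraries were paired. With a replicate block 4 were called (H2BC5 and H2AC6 higher, H2AC20 and H4C4 lower), beside 150 of 12949 genes (1.16%). In Kasumi-1 the replicate block called 1 (H2BC12), against 0 without it. Without the filter the difference between the lines called 1 (H4C13), which is under 1 TPM or 1 FPKM in every library. Leaving out 1 library each gave medians of -0.19 to 0.20 and sum differences of 3.72 to 25.8 TPM, and the median was -0.19 without JOA library 1. Median-ratio scaling put the median of the histone genes at 0.00.

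Among the named genes the sign reversed only when 1 library was left out. H1-2 then ran from -0.11 (without JOA library 2) to 0.39, and H2AC13 from -0.65 to 0.049 (without JOA library 2). H2AC17 ran from -0.46 to 0.29 (without control library 2), at 0.071 without JOA library 2. H2BC18 ran from -0.39 (without control library 2) to 0.71, at -0.051 without JOA library 1. The cause of these shifts was not tested beyond the fewer libraries used. The NB4 depth is unknown, so no counting error can be set on values under 1 TPM.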
